A study of Mus musculus with 8 samples.

Results

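The MondoA glucose-sensing system was followed through 8 genes in left ventricles of mice labelled as Nbdy knockouts and of wild-type mice. They are the Mlx network factors Mlxip (MondoA), Mlxipl (ChREBP) and Mlx, and the alpha-arrestins Txnip, Arrdc1, Arrdc2, Arrdc3 and Arrdc4. All 8 symbols matched 1 row each of the 38293 rows in the count table, and all 8 had enough counts to enter the fit of 13336 genes. The genes were selected on the knockout against wild-type values of these same hearts, in which Mlxip stood near the top of the ranking, so their differences between genotypes are given as a description and support nothing.

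The study sequenced poly(A) RNA from 1 left ventricle per mouse. The knockout (KO) group holds 4 hearts, replicates 5 to 8, labelled mORF4-NBDY_KO. The wild-type (WT) group holds 4 hearts, replicates 1 to 4. All 8 mice were untreated males of 8 weeks on the C57BL/6 background, and neither the type of KO allele nor the cells in which it acts is described. Nbdy encodes a microprotein that associates with the mRNA decapping machinery.

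MondoA and ChREBP are basic helix-loop-helix leucine zipper factors that sit partly at the outer mitochondrial membrane or in the cytoplasm and enter the nucleus when hexose phosphates such as glucose 6-phosphate accumulate. Each pairs with Mlx and binds the carbohydrate response element, a tandem of E-boxes. Txnip and Arrdc4 are their best known targets. Txnip binds thioredoxin and promotes removal of glucose transporters from the cell surface, which makes it a brake on glucose uptake, also in cardiac and skeletal muscle.

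Libraries held 11793495 to 14699949 counts in KO hearts and 11101901 to 12773611 in WT hearts. Expression is given as CPM, a gene's counts scaled to a common library size and composition. Nbdy itself had 9.58 to 10.4 CPM in KO hearts and 19.0 to 20.1 CPM in WT hearts, so its RNA was lower in KO hearts but still present. The 6 cardiomyocyte markers Myh6, Tnnt2, Tnni3, Actc1, Ryr2 and Pln summed to 50090 to 60520 CPM in KO hearts and 48340 to 57830 in WT hearts. Of the 5 atrial markers, Dhrs9 was at 0, Sln and Myl7 had at most 7 and 28 counts in any heart and Myl4 40 to 116. The list summed to 456.9 to 713.1 CPM in KO hearts and 264.4 to 481.0 CPM in WT hearts, nearly all of it Nppa, which ventricles under load also express. WT replicate 2 stood apart in Atf3, with 260.5 CPM against 5.94 to 23.8 in the other WT hearts. Mitochondrial transcripts took 23.02 to 26.7% of counts in KO hearts and 19.4 to 29.2% in WT hearts, the highest being WT replicate 1.

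The promoters of Txnip and Arrdc4 are shown because both genes are known targets of MondoA, and the members differ in the E-boxes they hold. RefSeq windows (GRCm38.p6) from 250 bases before to 50 bases after each start were searched for the E-box CACGTG, for a pair of E-boxes with a 5-base spacer, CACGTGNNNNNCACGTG, and for CCAAT on either strand. Both E-box forms read the same on the opposite strand, and a single E-box is contained in the pair. All 8 members had a window, 11 windows in all. Below are the 250 bases before the start of Txnip (chr3:96557707-96557956, plus strand) and Arrdc4 (chr7:68749239-68749488, minus strand), 5′ to 3′ along the gene. Capitals mark the best match to the E-box pair in Txnip, the E-box in Arrdc4 and every CCAAT or its reverse complement.
Txnip: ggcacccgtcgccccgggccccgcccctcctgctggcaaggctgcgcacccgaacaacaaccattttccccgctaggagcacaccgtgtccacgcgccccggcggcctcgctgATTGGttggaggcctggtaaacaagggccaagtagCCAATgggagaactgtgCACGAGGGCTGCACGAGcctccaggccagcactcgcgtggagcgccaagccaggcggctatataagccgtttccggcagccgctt
Arrdc4: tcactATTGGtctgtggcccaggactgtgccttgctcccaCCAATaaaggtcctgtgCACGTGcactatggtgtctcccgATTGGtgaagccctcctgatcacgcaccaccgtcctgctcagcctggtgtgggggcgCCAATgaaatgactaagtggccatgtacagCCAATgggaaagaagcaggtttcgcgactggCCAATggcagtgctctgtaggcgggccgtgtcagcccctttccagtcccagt

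The Txnip match, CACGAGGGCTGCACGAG, runs from position -85 to -69 relative to the start and departs from the pair at 2 of its 12 fixed positions. Of the 32851 promoter windows searched, 0.953% held a match with at most 2 mismatches. Arrdc4 holds 1 full E-box, which begins at position -193, with a best pair at 3 mismatches, a match that 8.56% of windows equalled or bettered. It also holds 6 CCAAT boxes, the motif of the factor NF-Y, and 0.0791% of windows held 6 or more. Txnip holds 2, and 11.7% of windows held 2 or more.

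A full E-box also lay before the start of Mlx and of the upstream start of Mlxipl, against 7.15% of all windows with one. The best pair at that Mlxipl start, from -109 to -93, had 3 mismatches, as in Arrdc4, which 8.56% of windows equalled or bettered. The best pair of Mlx had 4. These stretches of 40 bases are shown because they are genes of the factors themselves; capitals mark the E-box. Mlx lies at chr11:101087233-101087272 and Mlxipl at chr5:135089775-135089814, both on the plus strand.
Mlx: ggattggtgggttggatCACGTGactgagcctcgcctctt
Mlxipl: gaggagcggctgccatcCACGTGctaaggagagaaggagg
The windows of Mlxip, Arrdc1, Arrdc2 and Arrdc3 held no E-box and no pair with fewer than 4 mismatches, and 44.1% of windows reach 4 or fewer. A match describes letters in a window and does not show binding.

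**Figure D1:**
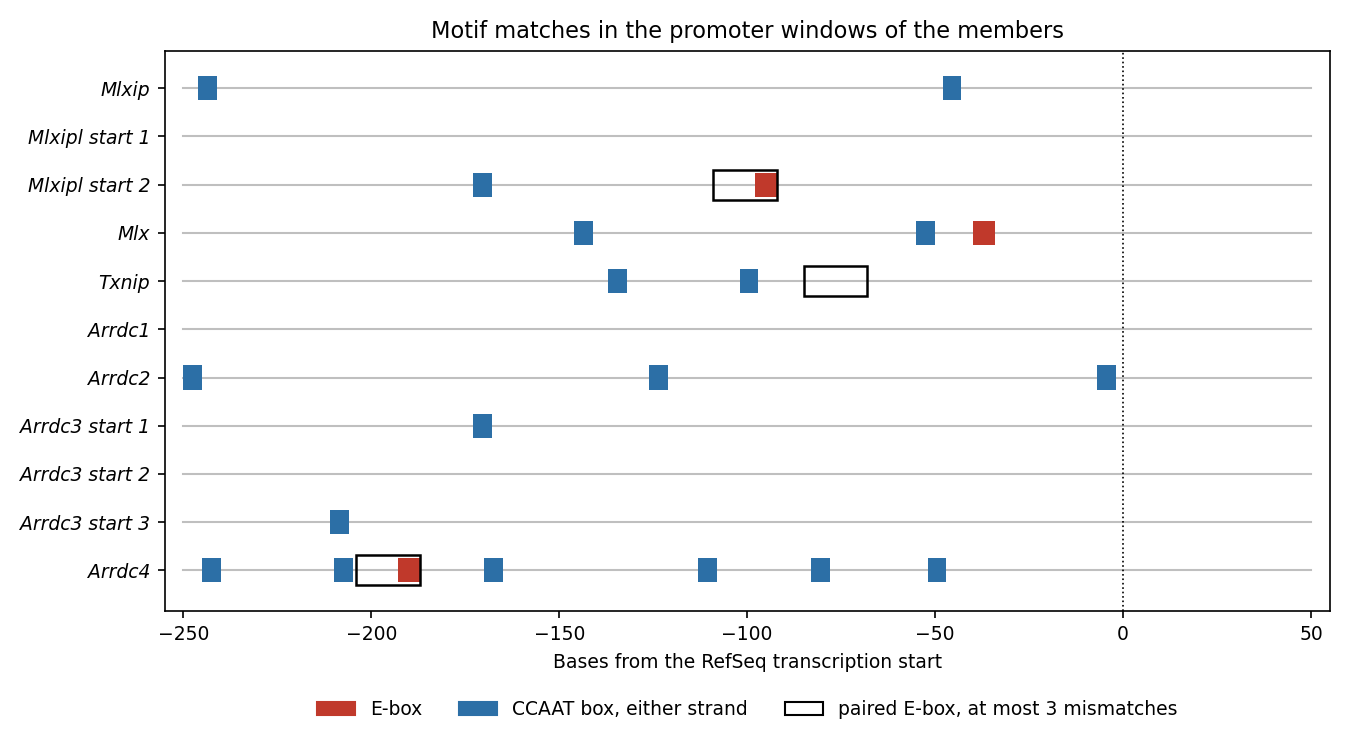
Motif matches in the 11 RefSeq promoter windows of the 8 members; the x axis gives bases from the transcription start, red bars are E-boxes, blue bars CCAAT boxes on either strand and open boxes E-box pairs with at most 3 mismatches. Txnip has its pair at -85 to -69, and Arrdc4 has 6 CCAAT boxes with its E-box at -193.

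Mlxip, the gene of MondoA, had more transcript in every KO heart than in any WT heart. It held 73.1, 80.2, 79.1 and 81.4 CPM in KO replicates 5 to 8, against 60.5, 57.7, 56.0 and 43.9 CPM in WT replicates 1 to 4. The groups did not overlap, and WT replicate 4 was the lowest heart. Mlxip averaged 78.4 ± 3.70 CPM in KO hearts and 54.5 ± 7.32 CPM in WT hearts (SD, n = 4 each). The log2 fold change was 0.52 ± 0.12 (SE), a ratio of 1.44, and Mlxip ranked 11 of the 13336 genes by p. Leaving out 1 library gave values between 0.43 and 0.58. In GRCm38 Mlxip (ENSMUSG00000038342) lies on chromosome 5, plus strand, 123394798 to 123457932. Its span overlaps the antisense gene Gm15747 by 3160 bases, and Gm15747 held 0 to 2 counts per heart. On the same strand it overlaps Gm43813, Gm42907 and Gm42908 by 5378, 2148 and 870 bases, and these have no row in the count table. No cell marker passed in edgeR, and of the lists with 5 or more tested genes 2 had all values on 1 side of 0. The 6 fibroblast markers, all below 0 with a median log2 fold change of -0.21 (-0.30 without WT replicate 1, -0.13 without WT replicate 3), summed to 711.4 to 916.8 CPM in KO hearts and 890 to 1128 CPM in WT hearts. The 5 red blood cell markers, all above 0 with a median of 0.31 (0.11 without WT replicate 1, 0.495 without WT replicate 2), summed to 1146 to 2147 CPM in KO hearts and 814.9 to 1782 CPM in WT hearts. Nppa, of the atrial list, had a log2 fold change of 0.59 ± 0.19 (SE, edgeR adjusted p = 0.711). Myl4, the other atrial gene tested, stood at -0.0025 ± 0.29 (SE). Of the 6 macrophage markers, 3 lay above 0 and 3 below, with a median of 0.019. Among them Mrc1 stood at -0.42 ± 0.14 (SE, edgeR adjusted p = 0.711). Their part in the Mlxip difference was not tested, and in bulk tissue fewer cells of a type and less RNA per cell cannot be told apart.

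Mlxipl, the gene of ChREBP and the paralog best known from liver and fat, had overlapping groups. Its level was 85.8, 72.0, 74.2 and 74.2 CPM in KO replicates 5 to 8, against 93.9, 72.2, 78.7 and 53.2 CPM in WT replicates 1 to 4. WT replicates 1 and 4 were the highest and lowest of all 8 hearts. Its log2 fold change was 0.04 ± 0.15 (SE), or -0.096 without WT replicate 4 and 0.17 without WT replicate 1. Adipocytes also express Mlxipl, and the 6 adipocyte markers summed to 0.840 to 2.54 CPM in KO hearts and 1.06 to 17.7 CPM in WT hearts, with Lep at 0 in all 8. WT replicate 2 held the 17.7 CPM, and its Mlxipl lay between the other WT hearts; the part of adipocyte RNA in Mlxipl was not tested.

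Mlx, the shared partner, was the least variable of the factors among WT hearts. It held 15.5, 17.2, 18.7 and 13.0 CPM in KO replicates 5 to 8, against 18.1, 16.7, 18.1 and 17.2 CPM in WT replicates 1 to 4. The KO hearts spread over a 1.44-fold range around the narrow WT band, whose range was 1.09-fold. Mlx had a log2 fold change of -0.12 ± 0.13 (SE). The 3′ end of Mlx overlaps Psmc3ip on the opposite strand by 385 bases, and the strand setting of the counting is not given. Psmc3ip held 28 to 52 counts per heart.

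Txnip, the alpha-arrestin that restrains glucose uptake, had the most counts of the members and the highest level per length. It held 611, 611, 649 and 852 CPM in KO replicates 5 to 8, against 437, 615, 584 and 563 CPM in WT replicates 1 to 4. KO replicate 8 was the highest and WT replicate 1 the lowest of the 8 hearts, and WT replicate 2 exceeded both KO replicates 5 and 6, so the groups overlapped. The averages were 681 ± 115 CPM in KO hearts and 550 ± 78.2 CPM in WT hearts (SD, n = 4 each). Txnip had a log2 fold change of 0.31 ± 0.15 (SE), and 0.18 without KO replicate 8. On chromosome 3, plus strand, Txnip (ENSMUSG00000038393) covers 96557957 to 96561883 in GRCm38, wholly within the span of the antisense gene Gm15441, which held 6 to 31 counts per heart.

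**Figure D2:**
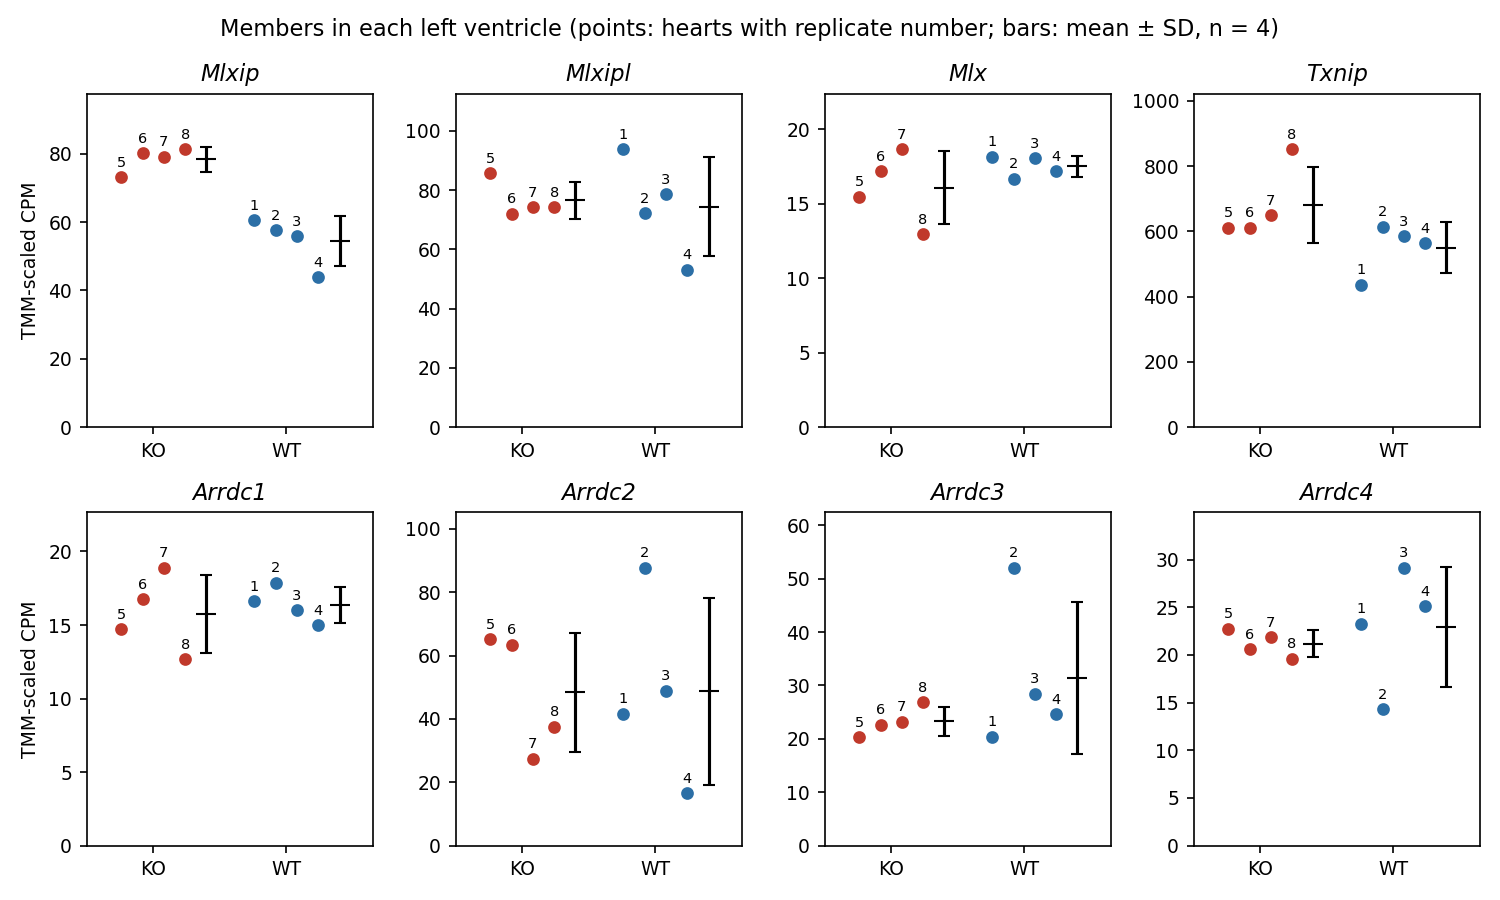
TMM-scaled CPM of each member in each heart (y axes start at 0); points are hearts marked with their replicate number, KO in red and WT in blue, and bars give the mean ± SD of 4 hearts. Mlxip is the 1 panel without overlap, from 73.1 to 81.4 CPM in KO hearts and from 43.9 to 60.5 CPM in WT hearts.

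Arrdc4, the closest relative of Txnip in function and a second MondoA target that acts on glucose transporters, had overlapping groups. It held 22.7, 20.6, 21.9 and 19.6 CPM in KO replicates 5 to 8, against 23.3, 14.3, 29.2 and 25.1 CPM in WT replicates 1 to 4. All 4 KO hearts lay inside the WT range, with WT replicate 2 the lowest heart. A log2 fold change of -0.12 ± 0.18 (SE) was estimated, and 0.016 without WT replicate 3.

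Arrdc3, which binds beta-adrenergic receptors and steers their trafficking, held 20.3, 22.6, 23.2 and 26.9 CPM in KO replicates 5 to 8, against 20.4, 52.1, 28.4 and 24.7 CPM in WT replicates 1 to 4. WT replicate 2 stood far above the other 7 hearts, none of which exceeded 28.4 CPM, and those overlapped. The log2 fold change of -0.43 ± 0.24 (SE) became -0.076 without that heart.

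Arrdc2, an alpha-arrestin that responds to glucocorticoids in muscle, was the most variable member. It held 65.1, 63.4, 27.4 and 37.5 CPM in KO replicates 5 to 8, against 41.6, 87.7, 48.9 and 16.6 CPM in WT replicates 1 to 4. The KO hearts spanned a 2.38-fold range and the WT hearts a 5.29-fold range, and the averages were 48.3 ± 18.8 CPM in KO hearts and 48.7 ± 29.5 CPM in WT hearts (SD, n = 4 each). Its biological coefficient of variation within genotypes, 0.384, exceeded that of 97.0% of tested genes, while the 0.129 of Mlxip lay at the percentile 16.7. Its log2 fold change was -0.0051 ± 0.39 (SE); leaving out WT replicate 4 gave -0.30 and leaving out WT replicate 2 gave 0.44.

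Arrdc1, which drives budding of small vesicles from the plasma membrane, held 14.7, 16.7, 18.9 and 12.7 CPM in KO replicates 5 to 8, against 16.6, 17.9, 16.0 and 14.97 CPM in WT replicates 1 to 4. The WT hearts lay within the KO range. The estimate on the log2 scale was -0.053 ± 0.14 (SE), and 0.036 without KO replicate 8.

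Across the 8 members, 3 log2 fold changes were above 0 and 5 below, with a median of -0.029, beside -0.0032 over all tested genes. In edgeR's quasi-likelihood fit 0 of 8 had an adjusted p under 0.05, where 0.0225% of all tested genes did, and 1, Mlxip, had an unadjusted p under 0.05, as did 6.40% of all tested genes. DESeq2 put 1 member under the threshold, again Mlxip (adjusted p = 0.046), and limma-voom 0. The Mlxip adjusted p ran from 0.046 to 0.952 over the 17 alternative fits and was 0.641 in edgeR. Without KO replicate 8, 5 members had a value above 0. Groups did not overlap with KO above WT in 1 of 8 members, against 2.14% of tested genes. Because the contrast chose the members, nothing is read from these counts.

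Levels within a heart do not use the contrast, and they can be ordered per length as RPKM, the CPM divided by kilobases of annotated exon. Txnip had 197 ± 36.8 RPKM over the 8 hearts (SD), which placed it at rank 189 of 13232 genes with a length. It made up 87.6 ± 3.26% of the summed RPKM of the 5 alpha-arrestins in KO hearts and 84.6 ± 3.60% in WT hearts (SD, n = 4 each). Mlxipl followed with 13.6 ± 2.13 RPKM, then Arrdc2 with 15.02 ± 7.08, whose mean on the log2 scale was slightly lower. Next came Mlx with 8.40 ± 0.922, Mlxip with 7.99 ± 1.67, Arrdc1 with 6.40 ± 0.776, Arrdc4 with 5.47 ± 1.07 and Arrdc3 with 4.36 ± 1.66 RPKM (SD, n = 8).

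Txnip exceeded Mlxipl in 8 of 8 hearts by 3.85 ± 0.40 on the log2 scale (SD), a 14.4-fold difference. The exact two-sided paired permutation test gave p = 0.0078, the smallest that 8 hearts allow, and an adjusted p of 0.055 over the 7 neighbouring pairs, so 1 pair alone could not pass. The other 6 pairs had exact permutation p from 0.070 to 0.977 (adjusted 0.164 to 0.977), so none of these neighbours was shown to differ over the 8 hearts. The order that set the pairs and their direction came from the same 8 hearts, so these p-values are not independent support for the order. That test takes both genotypes as 1 sample. Mlx over Mlxip was split by genotype: Mlx was higher in 0 of 4 KO hearts and in 4 of 4 WT hearts. This split largely repeats the genotype difference in Mlxip and is likewise only a description. Mlxip had 9.42 ± 0.444 RPKM in KO hearts and 6.55 ± 0.879 in WT hearts, beside 8.04 ± 1.23 and 8.76 ± 0.351 for Mlx in KO and WT hearts (SD, n = 4 each). With the longest transcript as length, 2 of the same pairs passed, and Arrdc1 moved ahead of Mlxip and Mlx. They were Txnip over Mlxipl (3.38 on the log2 scale) and Arrdc1 over Arrdc4 (0.79, against 0.24 by exon), each with an adjusted exact permutation p of 0.027. The Txnip difference was smaller there, and its adjusted p fell because 2 pairs shared the smallest p. The exact p does not cover the choice of length.

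Both glucose sensors were present in the ventricle, and per length Mlxip stayed below Mlxipl in all 8 hearts. The ratio of Mlxip to Mlxipl was 0.566, 0.741, 0.709 and 0.729 in KO replicates 5 to 8, against 0.429, 0.532, 0.473 and 0.549 in WT replicates 1 to 4. The ratios did not overlap between genotypes, which repeats the difference in Mlxip.

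**Figure D3:**
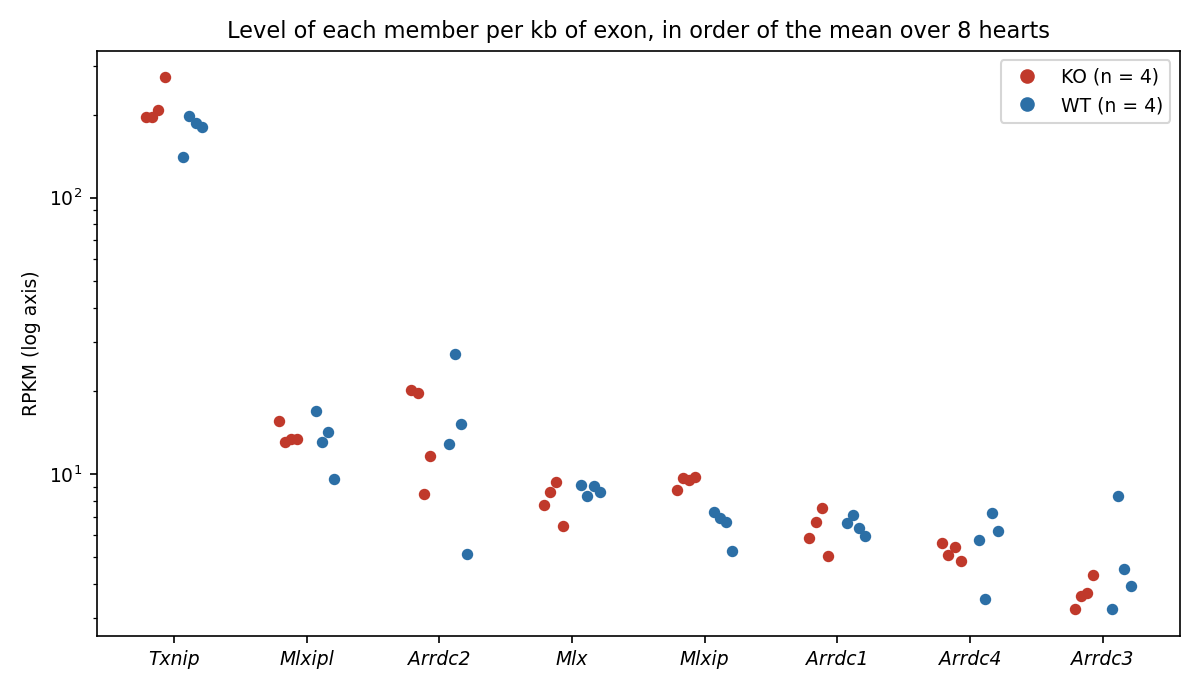
RPKM of each member in each heart on a log axis, ordered by the mean of log2 RPKM over 8 hearts, with KO in red and WT in blue. Txnip lies between 140 and 273 RPKM, above all other members, which lie between 3.24 and 27.1 RPKM.

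Whether Txnip RNA followed the RNA of its regulators from heart to heart was asked within genotypes, after each genotype's mean was removed. RNA of the factors does not measure their entry into the nucleus, so their activity was not tested. Over 576 exact permutations within genotype, 0 of the 7 pairs with Txnip passed by Pearson or Spearman correlation, and 0 had an unadjusted p under 0.05. With Mlxip the correlation was r = -0.086 and rho = 0.14 over 8 hearts (exact permutation p = 0.833 and 0.778, adjusted 0.936 and 0.903). With Mlxipl it was r = -0.45 and rho = -0.43 (exact permutation p = 0.349 and 0.309, adjusted 0.638 and 0.721). With Mlx it was r = -0.66 and rho = -0.60 (exact permutation p = 0.101 and 0.160, adjusted 0.352 and 0.559). Without KO replicate 8 and WT replicate 1, the hearts farthest from the median of Txnip, these r were 0.72, 0.39 and 0.33, so their sign rested on those hearts.

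Arrdc3 was the member that came nearest to following Txnip, with r = 0.69 and rho = 0.71 over 8 hearts (exact permutation p = 0.068 for each, adjusted 0.352 and 0.474). Its r was 0.82 without the same pair of hearts. Leaving out WT replicate 2 gave r = 0.91, and leaving out WT replicate 1 gave r = 0.50, each with an adjusted exact permutation p of 0.049. That is the smallest adjusted p that a lone pair can reach with a heart left out, so it does not rank these r. Arrdc4, the other classic target, had r = -0.31 and rho = -0.33 (exact permutation p = 0.498 and 0.460, adjusted 0.698 and 0.805), and r = -0.62 without the pair of hearts. Arrdc1 stood at r = -0.44 and rho = -0.24 (exact permutation p = 0.365 and 0.632, adjusted 0.638 and 0.885) and turned to r = 0.89 without them. Arrdc2 had r = -0.042 and rho = -0.071 (exact permutation p = 0.936 and 0.903, adjusted 0.936 and 0.903), and r = 0.34 without them.

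In the hearts that stood out, arrestins deviated in both directions. In WT replicate 2, Arrdc2 lay 1.08 and Arrdc3 0.82 above the WT mean on the log2 scale, and Arrdc4 lay at -0.63. In KO replicate 8, Txnip lay 0.34 above the KO mean and Arrdc3 0.21 above it, while Mlx and Arrdc1 both lay at -0.29. In WT replicate 4, Mlxip, Mlxipl and Arrdc2 lay at -0.30, -0.45 and -1.32. WT replicate 2 also had the highest Myc, 15.8 CPM against 3.93 to 5.30 in the other WT hearts. The 18 glucocorticoid and FoxO responsive genes summed to 2008 CPM in that heart, against 1219, 1276 and 1452 CPM in WT replicates 1, 3 and 4. In KO replicates 5 to 8 they summed to 1822, 1615, 1582 and 1783 CPM. KO replicate 5, the highest of these, had Arrdc2 at 0.52 and Arrdc3 at -0.19 from the KO mean. The part of these differences in the arrestin values was not tested.

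**Figure D4:**
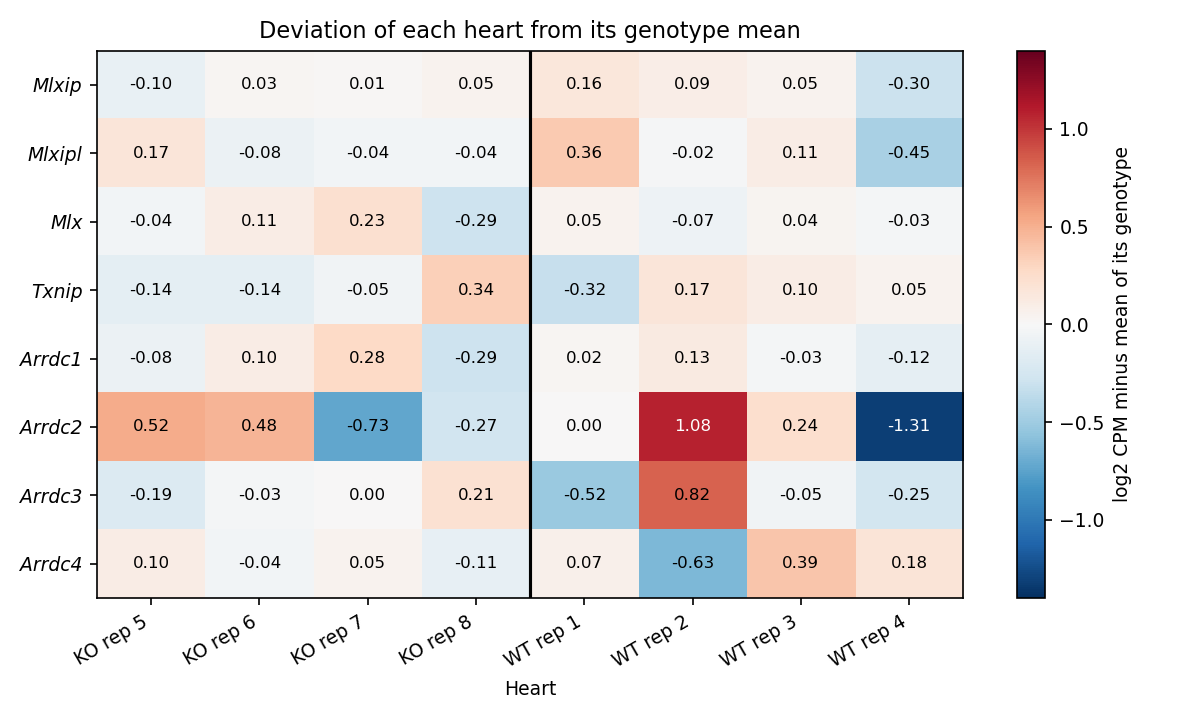
Deviation of log2 CPM from the mean of the heart's own genotype, for 8 members (rows) in 8 hearts (columns, KO left of the line and WT right); red is above and blue below the mean. WT replicate 2 shows Arrdc2 and Arrdc3 high with Arrdc4 low, and KO replicate 8 shows Txnip high.

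The genes whose deviations were most like those of Txnip over the 8 hearts, among 12941 others with at least 1 CPM, were Hlf with r = 0.99, a clock-controlled PAR-bZIP factor, Glud1 (glutamate dehydrogenase) with 0.98, Chsy1 (a chondroitin synthase) with 0.98, Kpnb1 (importin beta) with 0.98 and Ces1d (a carboxylesterase) with 0.98. For Mlxip they were Nktr with 0.996, Larp4b (an RNA-binding protein) with 0.99, Dock4 (a Rac activator) with 0.98, Mtf2 (a Polycomb partner) with 0.98 and Cped1 with 0.98. With 8 hearts and so many genes compared, these r are the extremes of a ranking and are given as a description. Arrdc3 ranked 854 and Arrdc4 9037 in likeness to Txnip, and Mlxipl ranked 575 in likeness to Mlxip.

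The wider pathway was described by 8 lists of 93 tested genes. In edgeR 0 of them passed over all genes (smallest adjusted p 0.652), DESeq2 and limma-voom also called 0, and 8 had an unadjusted p under 0.05, beside 6.40% of all tested genes. Their median log2 fold change was 0.018, beside -0.0032 over all tested genes. Groups did not overlap in 4 of the 93, against 4.12% of all tested genes in either direction.

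Among the partners of Max and Mlx, 0 of 8 tested genes passed, 6 lay above 0 and 2 below, and the median was 0.15, or 0.056 without WT replicate 4 and 0.083 without KO replicate 8. Mnt, a repressor that pairs with Max and with Mlx at E-boxes, held 19.5, 17.4, 18.4 and 19.3 CPM in KO replicates 5 to 8, against 12.6, 8.85, 14.5 and 12.1 CPM in WT replicates 1 to 4. The groups did not overlap, and the log2 fold change of 0.63 ± 0.15 (SE) did not pass (adjusted p = 0.652 in edgeR). It ran from 0.49 to 0.73 over the 17 alternative fits, none of which called it. Mxd1, another repressor of the network, stood at 0.27 ± 0.18. Myc stood at -0.61 ± 0.39, and at 0.057 without WT replicate 2.

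Of 18 tested targets of MondoA or ChREBP, 0 passed, 11 lay above 0 and 7 below, with a median of 0.092 that was 0.018 after a trend on GC content and length was taken out, and 0.019 without WT replicate 3 to 0.16 without WT replicate 4. Rgs16, a regulator of G protein signalling, had the smallest p and held 1.73 ± 0.669 CPM in KO hearts and 3.86 ± 1.83 CPM in WT hearts (SD, n = 4 each). KO over WT was -1.15 ± 0.39 on the log2 scale (SE; edgeR adjusted p = 0.711). Fasn, the fatty acid synthase gene, stood at 0.26 ± 0.12, and at 0.067 without that trend.

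Genes of glucose entry and hexose phosphates, which set the signal that MondoA reads, had 8 values above 0 and 6 below among 14 tested, and 0 passed. The median was 0.065, turned to -0.0089 without WT replicate 4 and was 0.13 without KO replicate 7. The glucose transporter gene Slc2a12 stood at -0.43 ± 0.20, the hexokinase gene Hk1 at 0.18 ± 0.11 and G6pdx, the first enzyme of the pentose phosphate pathway, at 0.24 ± 0.15 (SE).

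The thioredoxin list holds genes of thioredoxins, their reductases and peroxiredoxins, and Nlrp3. Txnip, which binds thioredoxin, is not in this list. The list had 0 of 9 tested genes passing, with 2 above 0, 7 below and a median of -0.11. Leaving out WT replicate 1 gave -0.19 and leaving out WT replicate 4 gave -0.025. Txn1, the cytosolic thioredoxin, averaged 82.6 ± 3.06 CPM in KO hearts and 94.3 ± 10.4 CPM in WT hearts (SD, n = 4 each), which is -0.19 ± 0.11 on the log2 scale (SE). The inflammasome gene Nlrp3 stood at -0.55 ± 0.45 and the peroxiredoxin gene Prdx2 at -0.12 ± 0.12.

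Ubiquitin ligases of the NEDD4 family, which alpha-arrestins recruit to membrane cargo, had 0 of 7 tested genes passing and a range from -0.16 to 0.26. Their median of 0.039 was -0.012 without WT replicate 2 and 0.105 without WT replicate 1. Wwp1 stood at -0.16 ± 0.12, Itch at -0.11 ± 0.12 and Hecw2 at 0.26 ± 0.33. The other arrestin-fold genes had 0 of 6 passing and a median of 0.074, or 0.033 without WT replicate 3. Arrb1, the beta-arrestin gene, stood at 0.38 ± 0.16, its paralog Arrb2 at -0.20 ± 0.14 and Rgp1 at 0.14 ± 0.11. The visual arrestins Sag and Arr3 and Arrdc5 had too few counts to test.

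Glucocorticoid and FoxO responsive genes, a programme that also acts on Txnip, had 12 values above 0 and 6 below among 18 tested, and 0 passed. The median was 0.079. It was 0.35 without WT replicate 2, 0.015 without WT replicate 1 and 0.0075 without WT replicate 4. The ubiquitin ligase gene Fbxo32 stood at 0.63 ± 0.16, the clock gene Per1 at 0.34 ± 0.11 and Pdk4, which inhibits pyruvate dehydrogenase, at 0.72 ± 0.37 (0.37 without KO replicate 5). The immediate early genes had 1 value above 0 and 15 below among 16 tested, 0 passed, and the median was -0.38. It ran from -0.947 without KO replicate 7 to -0.103 without KO replicate 6. Fosl2 stood at -0.44 ± 0.16, Ccn1 at -0.80 ± 0.39 and Atf3 at -2.32 ± 0.91. Without WT replicate 2, Ccn1 was -0.35 and Atf3 -0.064.

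**Figure D5:**
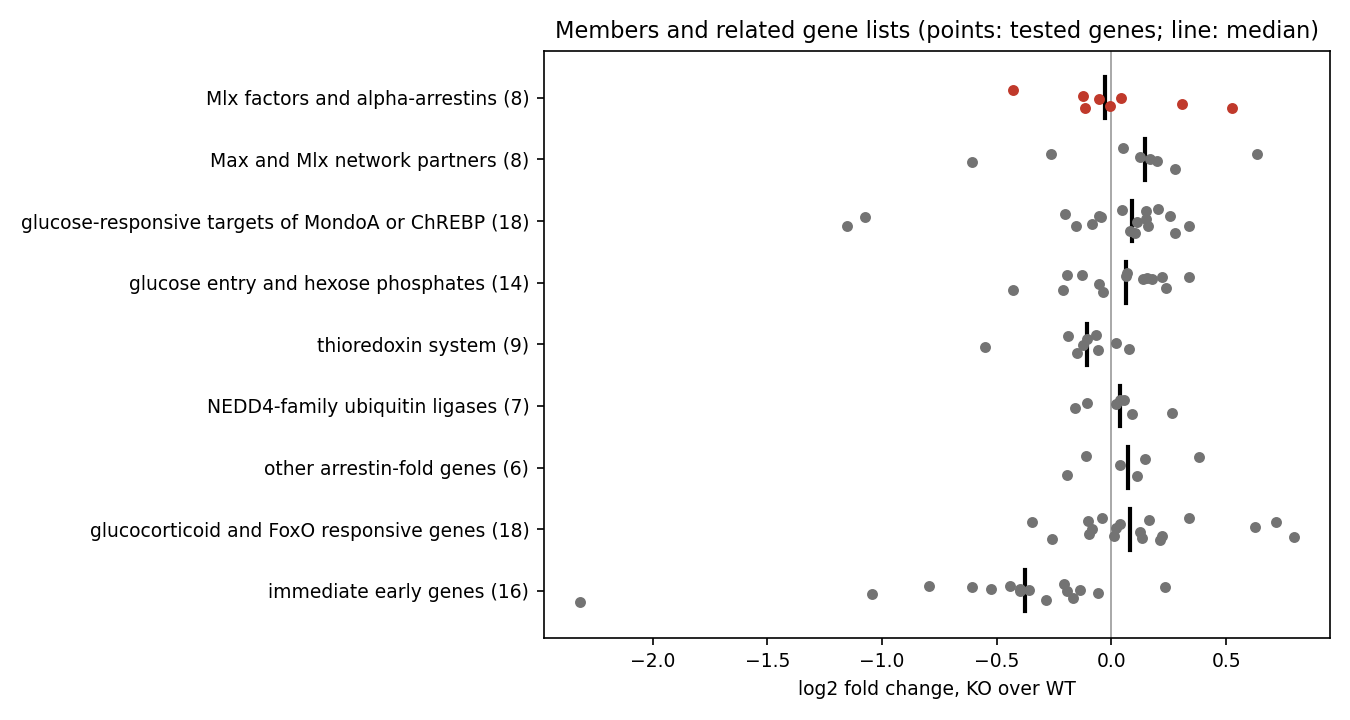
Log2 fold change of KO over WT (x axis) for each tested gene of the 8 members (red) and of 8 related lists (grey, number tested in parentheses); lines are medians. The medians run from -0.38 for immediate early genes to 0.15 for the partners of Max and Mlx, and the member farthest to the right is Mlxip at 0.52.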

How the data were processed

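The authors deposited raw counts per Ensembl gene, 1 column per heart, with no normalization. Alignment used STAR 2.7.1a and the GRCm38 (mm10) build, according to the submitters' processing notes. How reads were counted, and whether by strand, is not given in the sources used here, so overlapping and antisense genes may share reads. Positions and exon lengths came from GENCODE M21 (GRCm38), which matched 36429 of the 38293 identifiers. Each of the 28 pairs of libraries differed by more than sampling noise (chi-square over its degrees of freedom at least 11.5).

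For the comparison of genotypes, filterByExpr (minimum count 10) selected 13336 genes. They were fitted with edgeR 4.0.16 in R 4.3.3 after TMM scaling, with genotype as the only term. The quasi-likelihood test was two-sided, with Benjamini-Hochberg adjustment over all tested genes and a threshold of 0.05. SE is the size of the log2 fold change over the root of the F statistic. Log2 CPM used a prior count of 2, and RPKM is the scaled CPM per kilobase of the gene's exon union. The median SE of a log2 fold change was 0.158. Alternatives were other scalings and filters, DESeq2 1.42.0, limma-voom 3.58.1, a robust fit, no mitochondrial genes and each library left out. A fit without a per-library trend on GC content and length was added after the data had been seen. The members and lists were chosen with earlier results of these data known. Beside the members, the text names the 3 genes with the smallest p of each list (1 of them is not reported here), the 5 genes most like Txnip and Mlxip, and cell markers.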

Additional observations from a re-analysis of the deposited data

Results flagged for a closer look

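In 84 groups of 4 hearts, 42 genes by genotype, the highest or lowest heart was compared with the others by Dixon's ratio of the gap to the range, at its 95% critical value. Chance flags about 1 in 20 groups, and 6 hearts were past the value. Txnip had 852 CPM in KO replicate 8, against 611 to 649 CPM in the other KO hearts. The same heart stood out in both of the next genes, which were named for following Txnip across these hearts. Hlf had 30.1 CPM there, against 14.0 to 15.8 CPM in the other KO hearts, and Kpnb1 had 88.6 CPM, against 76.3 to 77.9 CPM. Mlxipl had 85.8 CPM in KO replicate 5, against 72.0 to 74.2 CPM in the other KO hearts. WT replicate 2 stood out in Myc, with 15.8 CPM against 3.93 to 5.30 CPM in the other WT hearts, and in Atf3, with 260.5 CPM against 5.94 to 23.8 CPM.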

How the results depend on the processing

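With 4 hearts per genotype the median SE was 0.158 on the log2 scale, so small differences in the members could not be seen. Over all genes, 2 were called higher and 1 lower in KO hearts. The counts were 6 and 4 with no filter, 8 and 3 with DESeq2, and 2 to 5 and 0 to 3 with 1 library left out (5 higher without WT replicate 4, 3 lower without WT replicate 1, 0 lower without KO replicate 6). DESeq2 called 1 member, Mlxip, whose log2 fold change kept its sign in all 17 alternatives and was lowest, 0.40, without the GC content and length trend, which was chosen after seeing the data. Members above 0 numbered 2 to 5 with 1 library left out. Txnip pairs past the threshold numbered 0 to 1, with 1 without WT replicate 1 or 2. The sign of the correlation with Txnip turned for Mlxip by Spearman (0.143) and, without the 2 hearts farthest from the Txnip median, for Mlxip (0.723), Mlxipl (0.39), Mlx (0.335), Arrdc1 (0.887) and Arrdc2 (0.34). With 1 library left out r ran from -0.294 to 0.383 for Mlxip, -0.677 to 0.00943 for Mlxipl, -0.63 to 0.175 for Arrdc1, -0.365 to 0.0992 for Arrdc2 and -0.535 to 0.0934 for Arrdc4. The pairs of levels that neighbour by annotated exon were also compared by longest transcript, where they need not be neighbours. There 2 passed, and 3 turned: Mlx over Mlxip (-0.07 on the log2 scale), Mlxip over Arrdc1 (-0.103) and Arrdc4 over Arrdc3 (-0.184). Mlxipl over Arrdc2 ran from -0.122 to 0.158 with 1 library left out. The cause was not tested. No paired analysis was possible because the labels name no pairs of KO and WT hearts. KO hearts are numbered 5 to 8 and WT hearts 1 to 4, so any effect of that order cannot be told apart from genotype.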
